A study of Caenorhabditis elegans with 2 samples.

Results

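Of the 30000 regions called on the pooled libraries of an ELT-4 chromatin immunoprecipitation with sequencing (ChIP-seq) experiment in C. elegans, 3604 (12%) had their summit in a long intron. A long intron here is an intron of at least 1000 bp of a protein-coding gene. Summits that fell in an exon of any gene, or within 500 bp of a tRNA, snoRNA or piRNA gene, were left out, and the latter step removed 108 regions. The members were therefore chosen by position and not by signal. The replicate lists, also of 30000 regions each, held 3574 such regions in replicate 1 and 3730 in replicate 2. The members lay in 2206 of 8486 distinct long introns, and 59 of them lay in long introns of more than 1 gene. By the authors' label, the pooled list holds background calls as well as peaks. Only 1279 of its 30000 entries (4.26%) passed the q-value threshold of 0.05. Values over all members therefore describe candidate regions, most of them short of that threshold, and not established ELT-4 sites.

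Both samples were whole hermaphrodite late embryos of strain OP111, taken 3 hours after synchronization by egg bleaching. The strain carries the mutation unc-119(ed3) III and the integrated transgene wgIs111, which makes ELT-4 with GFP and FLAG at its C-terminus in addition to the animal's own copy of the gene. Sonicated chromatin was precipitated with an antibody to GFP, although another label field names elt-4. The 2 samples are biological replicates of 1 group. No second genotype, stage or treatment was included, so no test over samples was made: the smallest two-sided exact p that 2 pairs of values allow is 0.5. The animals were whole, so no region can be assigned to a cell type, and wgIs111 is one integrated line. Signal is the value given to each region by the authors' peak caller, on a scale that is not stated. Its median was 16.4 in replicate 1, 18.3 in replicate 2 and 30.5 in the pooled list, so signals are compared here within a list. The depth of the libraries is unknown, and the control library was not analysed here.

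ELT-4 is a short GATA-type zinc finger protein, and its gene neighbours elt-2, which encodes the main GATA factor of the worm intestine. GATA factors of the endoderm act in series, with MED and END proteins specifying the E lineage and ELT-2 and ELT-7 maintaining intestinal expression, and the sequence TGATAA is the site best known for them. Most C. elegans introns are very short. Long introns are found mainly in genes with long coding regions or alternative starts, and enhancers and internal promoters have been described in them, often in the first intron. Regions shared by many factors are also known to recur in ChIP-seq lists of this organism.

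To show the base composition around strong summits, the sequences of 5 of the 8 strongest members are given with 100 bases on each side of the summit, 5′ to 3′ on the plus strand of WBcel235, which is the same assembly as ce11. They have ranks 1, 3, 5, 7 and 8 among the members by signal. None of the 5 holds TGATAA or the shorter GATAA on either strand. The members ranked 2, 4 and 6, in lsy-22, W03G11.4 and T06A4.1, are not shown, and each of these holds GATAA but not TGATAA. For the 5 shown, GC content ran from 49.3% to 61.7%. The M01F1.8 window is III:3499916-3500116, kcnl-1 is V:19590889-19591089, lin-14 is X:11473318-11473518, gck-3 is V:17962547-17962747 and F09A5.3 is X:13144402-13144602.
M01F1.8: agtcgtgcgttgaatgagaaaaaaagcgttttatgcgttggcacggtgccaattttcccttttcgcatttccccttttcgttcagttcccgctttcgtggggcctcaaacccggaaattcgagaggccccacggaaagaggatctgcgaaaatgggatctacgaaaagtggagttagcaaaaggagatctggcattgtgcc
kcnl-1: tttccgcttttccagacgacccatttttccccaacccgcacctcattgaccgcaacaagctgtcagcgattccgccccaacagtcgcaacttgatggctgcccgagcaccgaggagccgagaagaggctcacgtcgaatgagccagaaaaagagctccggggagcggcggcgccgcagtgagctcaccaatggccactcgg
lin-14: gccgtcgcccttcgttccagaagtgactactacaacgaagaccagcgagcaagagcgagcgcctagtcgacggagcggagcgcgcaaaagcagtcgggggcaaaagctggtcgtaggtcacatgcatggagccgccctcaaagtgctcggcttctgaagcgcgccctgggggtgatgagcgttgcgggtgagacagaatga
gck-3: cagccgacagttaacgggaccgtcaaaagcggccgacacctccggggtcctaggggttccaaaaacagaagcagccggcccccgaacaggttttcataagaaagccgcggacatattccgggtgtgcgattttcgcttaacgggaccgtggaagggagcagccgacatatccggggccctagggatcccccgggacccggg
F09A5.3: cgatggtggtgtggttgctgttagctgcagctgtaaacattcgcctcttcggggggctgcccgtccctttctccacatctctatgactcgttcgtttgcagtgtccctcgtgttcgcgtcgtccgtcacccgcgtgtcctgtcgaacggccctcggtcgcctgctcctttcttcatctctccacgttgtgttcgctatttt

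The 4 strongest members that do hold TGATAA were found lower in the list, at pooled signals from 74.4 to 77.4. They are shown because this is the motif best known for endodermal GATA factors, and the motif or its complement TTATCA is in capitals. The Y56A3A.7 window is III:11935940-11936140, ptp-1, which encodes a tyrosine phosphatase, is III:3601535-3601735, unc-17 is IV:3621844-3622044 and spop-1 is III:10094711-10094911. The motif lay next to the summit in Y56A3A.7, ptp-1 and unc-17, and near the end of the window in spop-1.
Y56A3A.7: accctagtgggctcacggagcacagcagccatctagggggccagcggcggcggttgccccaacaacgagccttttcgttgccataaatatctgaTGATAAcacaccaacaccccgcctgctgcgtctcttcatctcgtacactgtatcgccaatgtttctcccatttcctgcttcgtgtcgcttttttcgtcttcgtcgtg
ptp-1: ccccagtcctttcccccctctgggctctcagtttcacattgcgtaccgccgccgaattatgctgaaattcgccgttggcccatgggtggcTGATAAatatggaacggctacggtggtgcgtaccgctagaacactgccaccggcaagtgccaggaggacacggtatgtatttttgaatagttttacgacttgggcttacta
unc-17: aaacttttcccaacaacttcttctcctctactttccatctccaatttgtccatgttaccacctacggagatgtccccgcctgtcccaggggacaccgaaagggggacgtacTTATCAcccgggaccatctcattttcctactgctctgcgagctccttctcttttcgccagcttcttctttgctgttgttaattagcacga
spop-1: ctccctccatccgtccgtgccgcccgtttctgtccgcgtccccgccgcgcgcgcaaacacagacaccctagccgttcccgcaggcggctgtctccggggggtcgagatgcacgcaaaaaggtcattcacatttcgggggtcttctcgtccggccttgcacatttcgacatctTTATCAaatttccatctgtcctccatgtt

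Long introns held fewer regions per base than the rest of the genome, and these regions were of ordinary strength. The 3604 members lay on 15.2 Mb of eligible sequence, which is 15.1% of the genome, at 237 regions per Mb (95% Poisson interval 229.6 to 245). The rest of the genome held 310.2 per Mb. The ratio of members per Mb to the rest was 0.765 in the pooled list, 0.757 in replicate 1 and 0.795 in replicate 2. Exons carried the most regions, at 433 per Mb. Shorter introns had 257 per Mb and intergenic sequence 222 per Mb, so long introns lay between these 2 classes. The intervals cover the counting of regions only. Regions that overlap are not independent, and 464 members overlapped another member.

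The median signal of the members was 30.4, against 30.5 for the other 26396 regions. Strong regions by q-value were slightly rarer among the members: 126 of 3604 (3.50%, exact Clopper-Pearson 95% interval 2.92% to 4.15%) had a q-value of at most 0.05, and are called strong below, against 4.26% of all pooled regions. In replicate 1 the share was 4.56% (163 members) against 4.87% of that list, and in replicate 2 it was 2.33% (87 members) against 3.01%. The authors also deposited a list of peaks from an irreproducible discovery rate (IDR) filter, which is the very top of the pooled list by signal. It held 35 members (0.971%, interval 0.677% to 1.35%), against 1.14% of all pooled regions. The interval for the IDR share includes the background, so that share is near it. In the replicate lists, 1.45% and 1.31% of such regions overlapped an IDR peak by at least 1 bp. That match is looser than in the pooled list, where a region had to be the IDR peak itself. The same share over all regions of each replicate list is not given, so these values have no background beside them. By each replicate list's own strongest regions, taken in the same number as the IDR peaks, the shares were 1.20% in replicate 1 and 0.831% in replicate 2. The shares at the q-value threshold were below the background in all 3 lists, by less than 1 percentage point. For shorter introns the share at the same q-value was 3.16% and for intergenic regions 3.58%, while exonic regions reached 5.18%.

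Windows at members were richer in G and C than eligible long-intron sequence as a whole. Windows reaching 100 bp to each side of member summits had a mean GC content of 42.1% ± 7.20 (SD over 3604 regions), against 33.8% ± 7.32 over positions taken every 100 bp of all eligible long-intron sequence, occupied or not. Positions in the long introns that hold a member had 35.9% ± 7.32. Members of the replicate lists had 41.7% in replicate 1 and 40.9% in replicate 2. A GC content of at least 45% was found in 33.3% of the members and in 6.79% of the positions. The density of members rose with each class of GC content. It was 15.9 per Mb (interval 10.4 to 23.3) where GC content was below 25%, 100.2 per Mb from 30% to 35%, 529.96 per Mb from 40% to 45%, and 1739 per Mb (interval 1588 to 1901) at 50% or more. The last class had 109 times the density of the first. Replicate 1 gave 23.2 and 1635 per Mb in these outer classes and replicate 2 gave 25.1 and 1453 per Mb.

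**Figure D1:**
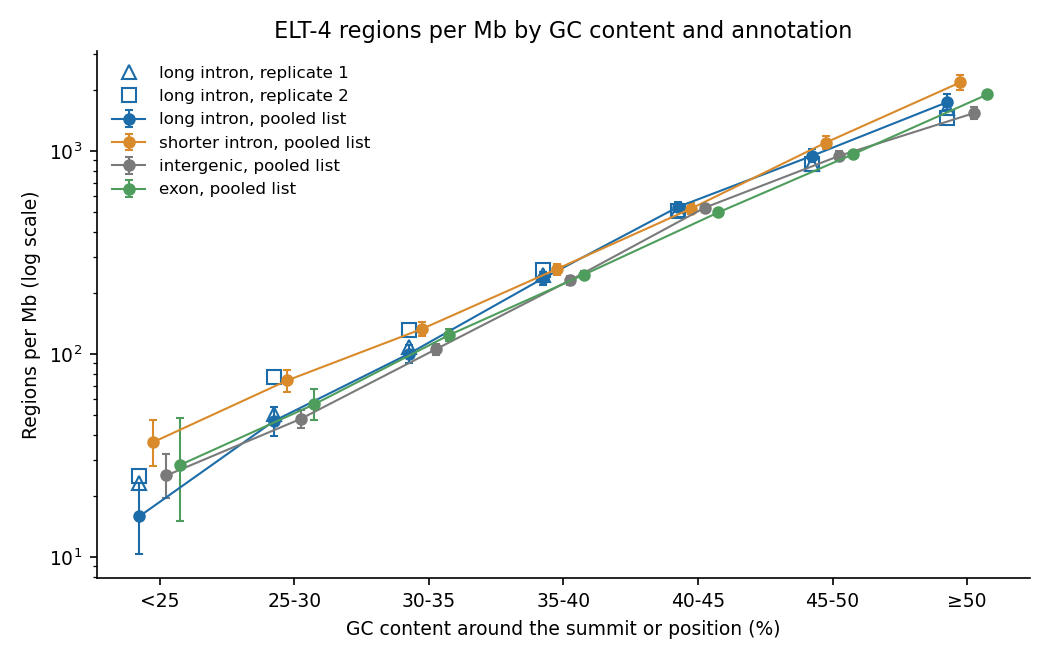
Regions per Mb, on a log axis, against the GC content of these windows for long introns, shorter introns, intergenic sequence and exons. Filled points are the pooled list with 95% Poisson intervals and open points the replicate lists for long introns, and density rose with GC content in every class, in long introns from 15.9 to 1739 per Mb.

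The same rise was seen outside long introns, and at equal GC content most of the gap to exons was gone. When each class was weighted to the GC content of long introns, exons had 249 regions per Mb and intergenic sequence 234 per Mb, beside 237 per Mb in long introns. Long introns over exons then gave a ratio of 0.954 in the pooled list and 0.934 ± 0.0390 (SD, n = 2 replicate lists). Against intergenic sequence the ratio was 1.01 in the pooled list and 1.02 ± 0.0291 (SD, n = 2), so these 2 classes did not differ beyond the spread of the lists. Shorter introns stayed higher, at 274 per Mb, with a ratio of 0.865 in the pooled list, 0.870 in replicate 1 and 0.864 in replicate 2. How read mapping and amplification vary with GC content was not tested, because no reads or control coverage were analysed here.

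Signal followed GC content in the same way. Members with a q-value of at most 0.05 had a mean GC content of 51.4% ± 6.03 (SD, 126 regions), and the 35 IDR members had 54.1% ± 6.18. Members ranked past 15000 in the pooled list had 39.9% ± 6.64. Across the members, Spearman's rho between pooled signal and GC content was 0.378, and across the other regions 0.384. Regions are not independent replicates and share both libraries, so these values are descriptions. The median signal of members was 26.6 where GC content was 30% to 35% and 41.5 where it was 50% or more, and 74 of the 126 strong members lay in the latter class.

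The GATA motif was rarer at members than over eligible long-intron sequence. TGATAA, searched as TGATAA or its complement TTATCA within 100 bp of the summit, was present in 397 members (11%, interval 10.01% to 12.1%). It was present in 16.2% of all eligible positions, in 15.8% of positions in the long introns that hold a member and in 12.7% of the other pooled regions. Among the 126 members with a q-value of at most 0.05 it was present in 6 (4.76%), and among the 35 IDR members in 0. A count of 0 of 35 allows a share of up to 8.57% (3 counts, counting error alone), and 6.19% of the other 307 IDR peaks held it. Past rank 15000 the share among members was 12.2%.

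GC content was not equal between these sets, and the share of TGATAA within a GC class differed little between members and positions. From 40% to 45% GC it was 10.3% in members and 10.8% in positions. From 45% to 50% it was 8.68% and 7.85%, and at 50% or more it was 4.73% and 4.69%. The widest gap was from 25% to 30%, where 15.4% of 149 members and 19.5% of positions held it. The shorter core GATAA was present in 28.0% of members against 34.7% of positions, and GATA followed by A or G and preceded by A or T in 29.4% against 32.6%. Both broader motifs include TGATAA. Over all windows, a pair of letter runs richer in G and C went the other way. GAGAGA, or its complement, was present in 17.6% of members, 9.91% of positions and 31.7% of the 126 strong members. CCGCC, or its complement, was present in 26.97%, 14.4% and 49.2%. Within a GC class these gaps were mostly small too. From 40% to 45% GC, GAGAGA was in 17.3% of members and 16.7% of positions, and CCGCC in 24.1% and 24.6%. At 50% or more, GAGAGA was in 26.95% and 22.7%, and CCGCC in 54.7% and 46.9%. A match describes letters in the window and not a bound site.

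**Figure D2:**
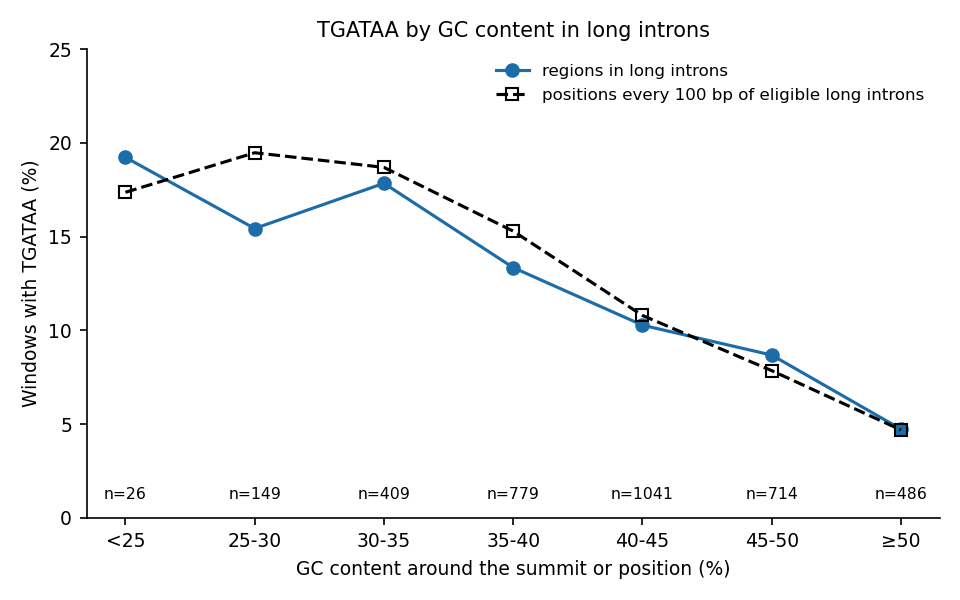
Percent of windows with TGATAA on either strand against GC content, for members of the pooled list (filled circles, number of members below) and for positions every 100 bp of all eligible long-intron sequence (open squares). Both shares were lowest at 50% GC or more, at 4.73% and 4.69%.

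First introns carried regions more densely than later introns. There were 1144 members in introns that are first in every long-intron transcript at that position, on 4.46 Mb, or 257 per Mb (interval 242 to 272). Later introns held 1875 members on 8.77 Mb, or 214 per Mb (interval 204 to 224). Sequence that is first intron in one transcript and later intron in another held 585 members at 297 per Mb. The ratio of first to later density was 1.20 in the pooled list, 1.22 in replicate 1 and 1.21 in replicate 2, which is 1.21 ± 0.00862 (SD, n = 2 replicate lists). The strength of the regions was alike. Median signal was 30.3 in first and 30.4 in later introns, and the ratio was 0.997 in the pooled list, 0.991 in replicate 1 and 1.00 in replicate 2. Strong members made up 4.02% of first-intron members (46) and 3.20% of later-intron members (60) in the pooled list. The replicates gave opposite directions for that share, with 4.26% against 4.798% in replicate 1 and 2.57% against 2.19% in replicate 2.

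Later introns held more repeated sequence, and the density difference was smaller where sequence was unique. A window counted as unique when at least 95% of its 36-base words occur once in the genome. This was so for 82.9% of positions in first introns and 68.8% in later introns. Members were sparse in repeats, at 56.6 per Mb where less than 50% of the words were unique, against 272 per Mb in unique windows. Within unique windows first introns had 276 per Mb and later introns 255.7 per Mb, a ratio of 1.08, and the replicate lists gave 1.13 and 1.12. At equal GC content over all windows the ratio was 1.23, and at equal GC content within unique windows it was 1.08. The unique windows held 1021 first-intron and 1542 later-intron members of the pooled list. No interval was made for these ratios, and the spread of the replicate lists does not cover the counting of regions. How reads with several matches were treated is not stated by the labels.

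First over later density was above 1 in all 3 lists beyond 1000 bp from annotated starts and below 1 in all 3 within 200 bp. Within 200 bp of any annotated transcription start site, long introns held 286 members at 373 per Mb (interval 331 to 419). Density was 253 per Mb from there to 500 bp, 219 per Mb from 500 to 1000 bp, and 224 per Mb beyond 2000 bp. First over later density was 0.873 within 200 bp, where replicate 1 gave 0.737 and replicate 2 gave 0.984. From 1000 to 2000 bp it was 1.23, with 1.15 and 1.18 in the replicates, and beyond 2000 bp it was 1.39, with 1.39 and 1.32. In unique windows those outer ratios were 1.19 and 1.23. From 200 to 500 bp the ratio was 1.03 in the pooled list, 1.11 in replicate 1 and 0.989 in replicate 2. From 500 to 1000 bp it was 0.917 in the pooled list and 1.11 in both replicates. The difference between distances was not tested. In all, 1276 members (35.4%) and 14 of the 35 IDR members lay within 1000 bp of a start site. Of the 15.2 Mb of eligible sequence, 0.767 Mb lay within 200 bp and 1.63 Mb from 200 to 500 bp. A further 2.63 Mb lay from 500 to 1000 bp, so the share of members was close to that of sequence.

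**Figure D3:**
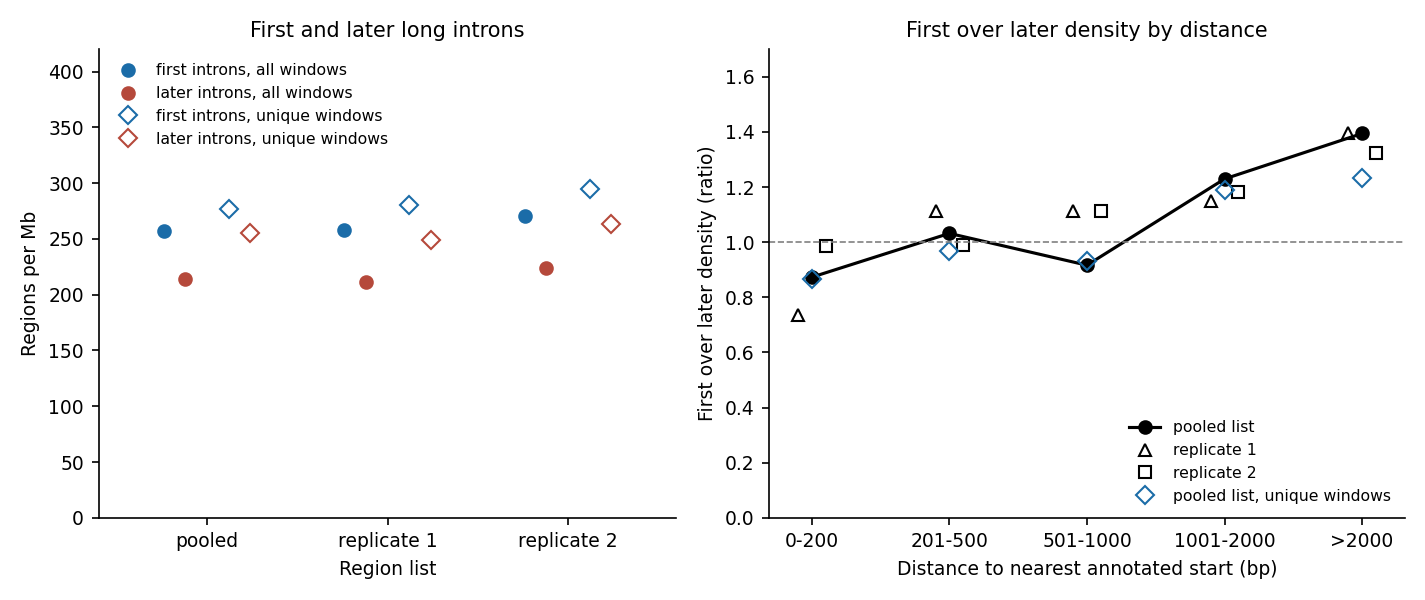
Left, regions per Mb in first and later long introns in the pooled and replicate lists, over all windows (filled circles) and unique windows (open diamonds). Right, first over later density by distance to the nearest annotated start site, where the pooled ratio went from 0.873 within 200 bp to 1.39 beyond 2000 bp.

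Density also differed with intron length and position. It was 204 per Mb in introns of 1000 bp to under 1500 bp, 181 per Mb from 1500 bp to under 2000 bp and 326 per Mb (interval 296 to 359) from 10000 bp, taking the shortest long intron at each position. The replicate lists gave 196 and 215 per Mb in the shortest class and 319 and 327 per Mb in the longest. Mean GC content of positions was 32.7% in the shortest class and 34.8% in the longest, and unique windows made up 75.2% and 85.5%. At equal GC content the densities were 240.2 and 283 per Mb, with the lowest, 204 per Mb, between 1500 and 2000 bp. In unique windows the outer classes had 213 and 335 per Mb. The 1000-bp limit itself marked no step. Introns of 900 to 999 bp held 232 regions at 208 per Mb with a median signal of 30.4, and introns of 1000 to 1099 bp held 230 members at 205 per Mb with a median of 29.8.

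Along the intron, density after the 5′ splice site was 186 per Mb from 200 to 500 bp (interval 168 to 206) and 189.97 per Mb from 500 to 1000 bp (interval 176 to 205), and these bands overlapped. From 2000 to 5000 bp it was 292 per Mb. Counted from the 3′ splice site, the same bands had 206, 200.7 and 278 per Mb. Density did not simply rise with distance. Within 100 bp and from 100 to 200 bp it was 233 and 229 per Mb on the 5′ side. On the 3′ side these values were 228 and 266 per Mb. Only introns longer than 2000 bp can hold the farthest band, and density differed with intron length as given above. Mean GC content of positions differed between bands too. On the 5′ side it was 34.9% within 100 bp, 32.5% from 200 to 500 bp and 35.03% from 2000 to 5000 bp. The same bands on the 3′ side had 34.9%, 32.9% and 34.8%. From 100 to 200 bp it was low, at 32.4% on the 5′ side and 32.5% on the 3′ side, beside 229 and 266 per Mb. The bands were not compared at equal intron length or at equal GC content. Among chromosomes, II had the densest long introns, at 282 per Mb, and IV the sparsest, at 210.4 per Mb. Both replicate lists also had II highest. IV was lowest in replicate 2 as well, at 219 per Mb, but in replicate 1 it had 222 per Mb, above V with 215 and I with 221 per Mb. The other regions of the pooled list were likewise sparsest on IV, at 253 per Mb. They were densest on III, at 367 per Mb, with II next at 359 per Mb. Annotated ncRNA, lincRNA or antisense genes lay within 500 bp of 376 members (10.4%), of 7.16% of positions and of 23 of the 126 strong members (18.3%). The share is not given for the other pooled regions, strong or not, so these values have no background of like regions beside them. Strong members were also richer in G and C than positions, and the shares were not compared at equal GC content.

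The strongest member stood far above the others. It lay at III:3499970-3500135 in the last intron of M01F1.8, which is intron 4 of 4 and 1170 bp long. Its pooled signal was 322, rank 2 of the 30000 regions, and its signal was 119 in replicate 1 and 203 in replicate 2, ranks 3 and 1. The next member had a pooled signal of 100.9. That region, at I:7711513-7711982, was in the first intron of lsy-22, a Groucho-related corepressor gene known from neuronal asymmetry. Its signals were 44.1 and 58.2 in replicates 1 and 2, at ranks 209 and 62.

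Behind these, signals formed a close series from 99.7 to 90.6 over the members ranked 3 to 12. The member in kcnl-1, which encodes a calcium-activated potassium channel, lay at V:19590754-19591223 in intron 5 of 13. It had a pooled signal of 99.7 and 49.2 and 46.2 in the replicates, and its summit was 37 bp from an annotated start site. W03G11.4 held a member of 98.9, with 45.3 and 52 in the replicates, in a first intron of 12644 bp, and a second IDR member of 81.4 in the same intron. T06A4.1 held a member of 98.01 at I:772816-773285, 111 bp from a start site, with 42.9 and 58.04 in the replicates. These 3 regions were in the top set of both replicate lists, meaning as many of the strongest regions of a list as there are IDR peaks. So was the one in mbk-2, which encodes a DYRK-family kinase of the oocyte-to-embryo transition, at 89.5 with 45.1 and 45.8 in the replicates.

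The remaining members of the first 12 lay in introns of 7 genes. lin-14, a nuclear protein that sets early larval fates and is repressed by a microRNA, held a member of 98.7 at X:11473183-11473652 in intron 3 of 11, with 53.9 in replicate 1 and 41.8 in replicate 2. A further lin-14 member of 81.1 lay in the same intron. lin-42, the worm homologue of period, held a member of 93.7 at II:1237848-1238317, with 48.7 and 41.9 in the replicates and a GC content of 67.7%. daf-12, a nuclear receptor for steroid signals in dauer entry and timing, held a member of 91.96 at X:10637247-10637716 in its first intron, with 57.3 and 49.8 in the replicates, ranks 34 and 177. The others lay in gck-3, a kinase gene of osmotic regulation (93.8), in F09A5.3 (93.7), in Y45G5AM.6 (93.7) and in Y56A3A.6 (90.6). Y45G5AM.6 had the widest replicate gap of these, with 32.9 in replicate 1, rank 1141, and 62.3 in replicate 2, rank 41.

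**Figure D4:**
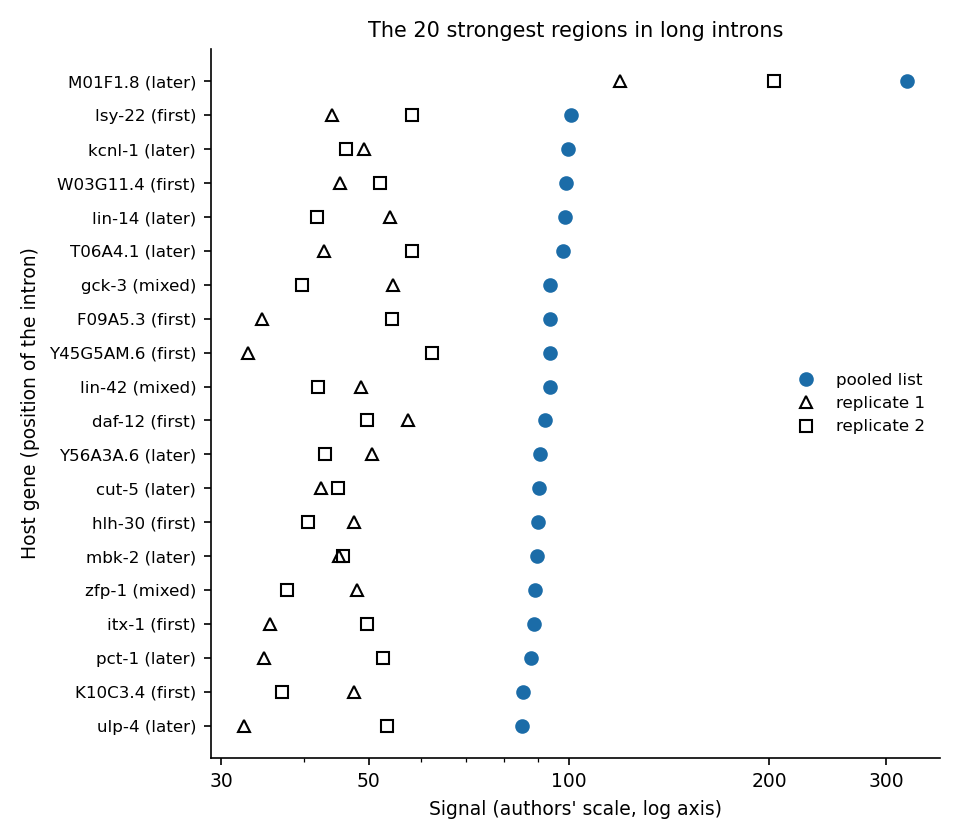
Signal on a log axis for the 20 strongest members, named by host gene and intron position, in the pooled list (filled circles), replicate 1 (triangles) and replicate 2 (squares). M01F1.8 at 322 stands apart, and the other members lie between 85.2 and 100.9 in the pooled list.

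The replicate lists shared the strong members by presence more than by rank. Of the 3604 members, 2033 (56.4%) overlapped a region in both replicate lists, against 55.8% of the other regions, and 134 overlapped none. All 126 members with a q-value of at most 0.05 were in both lists, as were 1147 of the 1153 other regions past that threshold (99.5%). Past rank 20000, 336 of 1210 members (27.8%) were in both, against 26.8% of the other regions, so presence by rank was alike in both sets. Spearman's rho between replicate signals was 0.291 over the members found in both and 0.315 over the other such regions. Each of the 35 IDR members was in both lists, at ranks as low as 2446 in replicate 1 and 2508 in replicate 2. Of these 35, 19 were in the top set of replicate 1, 18 in that of replicate 2, 7 in both and 5 in neither. Of the other 307 IDR peaks, 91 were in both top sets. The pooled list was called on the same libraries as the replicate lists, and the IDR filter selects for agreement between replicates. Presence of strong and IDR members in both lists is therefore largely built in and is no independent support.

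Over all members, 9 (0.250%) overlapped regions of the top set of both replicates, against 144 of the other 26396 (0.546%). The 9 members share 7 regions in each replicate list, since neighbouring members in M01F1.8 and in lsy-22 overlap the same replicate regions. The 7 host genes are M01F1.8, lsy-22, kcnl-1, W03G11.4, T06A4.1, daf-12 and mbk-2. The difference in share was not tested over samples, for the reason given above.

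**Figure D5:**
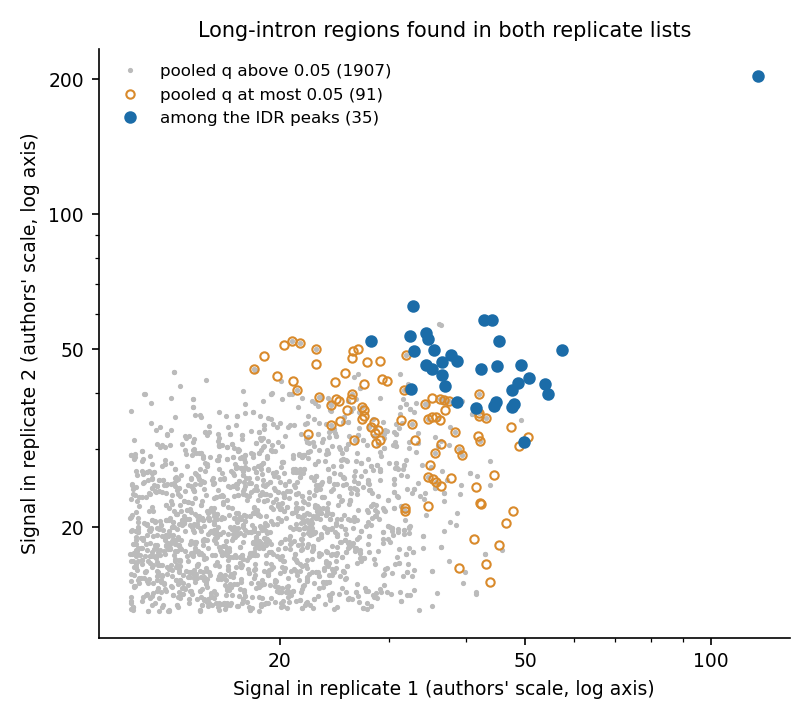
Signal in replicate 1 against replicate 2, both on log axes, for the 2033 members found in both replicate lists. The 35 IDR members (filled) ran from 28.1 to 119 in replicate 1 and from 31.1 to 203 in replicate 2, and the M01F1.8 region lies alone at the upper right.

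Genes with more long-intron sequence held more members. Of the 4273 protein-coding genes with eligible long-intron sequence, 1651 (38.6%) held at least 1 member and 120 (2.81%) held 1 with a q-value of at most 0.05. The share with a member was 21.5% for genes with under 2000 bp of such sequence and 86.02% for genes with 10000 bp or more. The genes with the most members were hmr-1, which encodes the classical cadherin and held 20 members in 38241 bp, and aakg-1, a gamma subunit gene of AMP-activated kinase, with 16 in 31759 bp. Next were the phosphodiesterase gene pde-3 with 15, and the spectraplakin gene vab-10, the multi-PDZ gene mpz-1 and the Nemo-like kinase gene lit-1 with 14 each. lit-1 was the densest of these, at 88.2 members per 100 kb. Its strongest member had a signal of 70.1, and 2 of its members passed the q-value threshold, against 0 of the 20 in hmr-1. The strongest hmr-1 member, at a signal of 62.1, only just missed the threshold, with a q-value of 0.05002.

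Genes of the endoderm and intestine were mostly outside the reach of the rule. None of the 7 endoderm GATA genes (elt-2, elt-4, elt-7, end-1, end-3, med-1 and med-2) had eligible long-intron sequence, which is what having a long intron means for the lists that follow. Of 28 genes of intestinal structure and function 5 had one and 1 held a member, itr-1, the inositol trisphosphate receptor gene, at a signal of 22.8 with no overlapping region in either replicate list. Of 11 transcription factor genes with intestinal roles, 7 had a long intron and 4 held a member, 26 members in all. This list was chosen with hlh-30 and daf-16 already known from earlier results and is no independent evidence. hlh-30, the TFEB homologue of lysosome and autophagy genes, held 10 members, the strongest of 89.9 at IV:4028033-4028502 with 47.6 and 40.5 in the replicates. daf-16, the FOXO factor of insulin signalling, held 13, the strongest of 79.6 at I:10765511-10765980 with 41.7 and 37.0. nhr-62 and skn-1 had weaker ones, at 39.8 and 39.3.

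GATA genes of other tissues had long introns with members of moderate strength. The 4 genes held 11 members, none with a q-value of at most 0.05. egl-18, a GATA factor of the epidermal seam, held 8, the strongest of 60.3 at IV:1906731-1907200 with 28.3 and 34.8 in the replicates. Its neighbour elt-6 held 1 of 37.8, which had no region in replicate 1 and a signal of 38.8 in replicate 2. The epidermal gene elt-3 held 2, the stronger of 34.3, and elt-1 held none.

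Neuronal and muscle genes supplied many long introns. The lists that follow are partial, and strong members in other genes of the same kinds are named beside them, chosen after their values were seen. Of 22 listed ion channel genes with a long intron, 16 held a member (72.7%), and 1 of these passed the q-value threshold. It was kqt-3, a KCNQ-type potassium channel, with a signal of 62.7, and with 43.8 in replicate 1 against 15.1 in replicate 2. unc-2, a presynaptic calcium channel, held 8 members, the strongest of 60.1 with TGATAA in its window, and the T-type channel cca-1 held 2, the stronger of 50.9. The list leaves out kcnl-1, with the member of 99.7 described above, and the potassium channel gene kvs-5, with one of 66.8 that also passed the q-value threshold. Of 21 synaptic genes 13 held a member and 3 a strong one. The kinesin gene unc-104 had 82.5 at II:7001316-7001785, with 38.8 and 38.1 in the replicates, although only 54.8% of the words in its window were unique. unc-17 and cha-1, which encode the vesicular acetylcholine transporter and choline acetyltransferase and overlap on the genome, share the region of 74.6 shown above with TTATCA, so it counts for both. Of 20 transmitter receptor genes 12 held a member, led by the GABA-B receptor gene gbb-2 at 60.7, the acetylcholine receptor gene acr-2 at 44.4 and the serotonin receptor gene ser-7 at 38.1. The gbb-2 region also lies in a long intron of ZK180.7. The ser-7 member had no region in replicate 1 and a signal of 27.9 in replicate 2.

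Adhesion and guidance genes held 98 members in 18 of 25 genes with a long intron, led by sax-7, an immunoglobulin-type adhesion molecule, at 62.9, hmr-1 at 62.1 and the Enabled homologue unc-34 at 59.1. Of these, sax-7 passed the q-value threshold. Of 15 sarcomere genes 12 held a member. lev-11, which encodes tropomyosin, held the single strong one of the list, at 61.9 with 41.2 in replicate 1 and 18.9 in replicate 2. Twitchin (unc-22) had 54.5 with 29.1 and 38.9, and kettin (ketn-1) had 49.1 with 22.3 and 29.7. The myosin gene myo-6 and the zyxin gene zyx-1 are not in the list. They had stronger members, of 65.1 and 63.7, that also passed the q-value threshold. Listed homeobox genes with a long intron numbered 32, and 20 held a member, none of them strong. The strongest of the list were in vab-7, the even-skipped homologue, at 59.2, in zag-1 at 56.2 and in the posterior Hox gene nob-1 at 48.8. The homeobox genes ceh-54, pha-2 and zfh-2 are not in the list and had members of 59.2, 51.3 and 50.1. In signalling 10 of 14 listed genes held a member, none strong, led within the list by the guanine nucleotide exchange factor unc-73 at 60.5, the Notch effector lag-1 at 58.4 and the Frizzled gene mig-1 at 56.9. Signalling genes outside the list had stronger members that passed the q-value threshold: the Notch coactivator gene sel-8 at 74.6, daf-5 of the dauer TGF-beta pathway at 72.4 and lit-1 at 70.1.

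Nuclear hormone receptor genes with an nhr name were close to the background, with a member in 25 of 55 (45.5%). The nuclear receptor gene daf-12, whose IDR member of 91.96 is described above, has no such name and is not counted. nhr-70 held an IDR member of 79.9, with 38.8 and 46.9 in the replicates, but only 53.01% of the words in its window were unique. nhr-23, a moulting regulator, had 59.8 and nhr-91 had 58.3. Of 8 cuticle collagen genes with a long intron 2 held a member, col-52 at 24.0 and col-99 at 23.9. None of the 78 cytosolic ribosomal protein genes had a long intron. The shares of the neuronal, adhesion, muscle and signalling lists, from 60% to 80%, are to be read beside 38.6% of all genes with a long intron and beside their longer sequence. The median gene of these lists had 3452 to 8138 bp of eligible sequence, against 2115 bp over all such genes. The homeobox list had a member in 62.5% of its genes at a median of 2133 bp, close to that of all genes. Whether the shares differ at equal sequence length was not tested.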

How the data were processed

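Per the labels, ChIP-seq of GFP-tagged ELT-4 was made in 2 replicates of 1 group. The deposited files list regions for each replicate, for both replicates pooled and for IDR peaks; the ce11 lists were used and the ce10 lists were not. The deposited signal was used unscaled, within a list. The deposited −log10 q-value was converted to a q-value. No label names the aligner, the caller or the read filters, and depth is unknown.

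Summits were placed on the Ensembl release 115 annotation of WBcel235, with introns taken from transcripts of protein-coding genes. Densities are summits per Mb of eligible sequence. GC content and motifs were read within 100 bp of the summit, and positions every 100 bp of the eligible sequence gave the comparison. Words of 36 bases that occur once on either strand were called unique. Replicate regions matched when at least 1 bp overlapped. Intervals are exact Poisson or Clopper-Pearson at 95% and cover counting only. Python 3.11.15, numpy 2.4.6, pandas 2.3.3, scipy 1.17.1 and matplotlib 3.10.9 were used. The code was tested on simulated regions of known density.

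By rule, named genes host the 12 strongest members, the 5 strongest in first and in later introns, the most members (6 genes), the strongest members of each gene list (up to 3 genes) or the members in both top sets. skn-1, elt-1, the genes outside the lists and the further members in lin-14 and W03G11.4 were named after their values were seen. The sequences are 5 of the 6 strongest members and the 4 strongest with TGATAA, leaving out 1 chromosome; the remaining sequence is not reported here. Of 30 ion channel symbols 29 were in the annotation. The members, lists and rules were chosen with earlier results of these data known. Alternatives varied intron length, exclusion distance, summit or midpoint, list, start-site distance, repeats, overlap, q-value, motif, window and transcript choice. Both alternatives on GC content were added after the data were seen.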

Additional observations from a re-analysis of the deposited data

How the results depend on the processing

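Of the values recomputed under 22 alternatives, 55 moved by less than the SD of the 2 replicate lists (counts: by less than 1.5 times), 48 moved by more, and 9 ratios of medians crossed 1. That SD is very small for some results, so small moves count. For the share of members with a region in both replicate lists, the SD used was that of another quantity. It came from the shares of members found in replicate 1 (74.8%) and in replicate 2 (77.9%). The cause of each move was not tested, except where the alternative itself removes regions. Leaving out regions within 1000 bp of a start site left 2328 members. The ratio of members per Mb to the rest was 0.736 with introns of at least 500 bp, 0.881 with at least 2000 bp, 0.830 in unique windows and 0.757 to 0.795 with 1 replicate list left out. The ratio of median signals, members over others, was 0.998 (500 bp), 1.01 (2000 bp), 0.998 with no exclusion near tRNA, snoRNA and piRNA genes, 1.0005 with exclusion within 1000 bp, 0.999 with midpoints, 1.005 away from start sites, 1.003 in unique windows, 1.002 with overlapping regions merged, and 0.9855 to 0.9856 with 1 list left out. The share of members at q was 0.832% at 0.01 and 5.97% at 0.1. The share among IDR peaks was 1.104% (500 bp) and 1.17% (merged). With 1 list left out, 1.31% to 1.45% overlapped an IDR peak, which is a looser match and not the same measure. As a point value without an interval, first over later density stayed above 1 under each alternative: 1.14 (500 bp), 1.101 (2000 bp), 1.18 (no exclusion), 1.21 (exclusion within 1000 bp), 1.32 (away from start sites), 1.08 (unique windows), 1.21 (merged), 1.26 (mixed introns as first), 1.16 (longest transcript only), 1.23 (equal GC content), 1.08 (unique windows and equal GC content) and 1.21 to 1.22 with 1 list left out. The first over later median signal was 1.003 (500 bp), 0.977 (2000 bp), 1.01 (away from start sites), 1.006 (mixed introns as first) and 0.991 to 1.00014 with 1 list left out. Members with a region in both replicate lists made up 51.7% (merged), 45.3% (overlap of 50%) and 26.9% (replicate regions above the median signal). TGATAA was in 10.6% (500 bp), 11.7% (2000 bp), 10.9% (no exclusion), 11.1% (exclusion within 1000 bp), 11.1% (midpoints), 10.8% (away from start sites), 11.7% (unique windows), 10.8% (merged), 5.44% (50 bp window), 27.8% (250 bp window) and 12.26% to 12.28% with 1 list left out. GATAA was in 28.0% and the broader consensus in 29.4%. Mean GC content was 40.9% to 41.7% with 1 list left out. Unknown depth, the unstated signal scale and the absence of a second group limit all of these values.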
